A study of Rattus norvegicus with 24 samples.

Results

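Late pregnancy was accompanied by lower transcript levels of 42 genes in the kidneys of both rat strains studied, among them the proximal tubule carriers of phosphate (Slc34a1) and neutral amino acids (Slc6a19) and enzymes such as Cyp2e1, Acmsd and Bhmt. The 42 genes were chosen from the RNA-seq read counts themselves. Levels were expressed as CPM, a gene's reads per 1000000 reads counted on genes, and a gene was taken when its mean over the 12 libraries was at least 2 CPM, every pregnant rat was below every non-pregnant rat within each strain, and the mean log2(CPM + 0.5) of pregnant minus non-pregnant rats was -0.3 or lower in each strain. These were 42 of 32883 listed genes and of the 12774 genes at 2 CPM or more, or 0.329% of the latter. Because the values at pregnancy and non-pregnancy chose the genes, those values are given as a description and carry no test.

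Kidney cross-sections of cortex with a smaller part of medulla came from female Sprague Dawley rats (CD, an outbred strain that the study took as healthy pregnancy) and Brown Norway rats (BN, an inbred strain whose pregnancies show placental insufficiency and preeclampsia-like signs). Rats were either non-pregnant (NP) or at day 18 of pregnancy (P18) after mating with a male of the same strain, and the labels name no other treatment. The labels give an age of 2 months in one field and 6 to 8 weeks in another. Each of the groups CD-NP, CD-P18, BN-NP and BN-P18 had 3 rats with 1 RNA-seq library each, with gene read totals of 8274159 at the least and 11879451 at the most. The tissue label was checked against kidney markers outside the chosen genes. Podxl, a podocyte surface protein, averaged 555 CPM and Slc7a13, an amino acid transporter of the proximal tubule, 1033 CPM.

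The proximal tubule takes back most filtered phosphate, amino acids, glucose and vitamins, and its cells also make active vitamin D, degrade amino acids and oxidize fatty acids. In healthy pregnancy the glomerular filtration rate rises, and with it the load that reaches this segment. The other cell types of a kidney section, such as podocytes, the filter cells of the glomerulus, contribute to the same RNA. In whole tissue, fewer cells of a type and less RNA per cell cannot be told apart.

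Transporters held most of the reads of the 42 genes. Slc34a1 encodes the main sodium-phosphate cotransporter of the proximal tubule brush border. It stood at 2586, 3065 and 2450 CPM in the CD-NP rats against 2159, 2046 and 1694 CPM in the CD-P18 rats, and at 2150, 2021 and 1922 CPM in the BN-NP rats against 1867, 1456 and 1552 CPM in the BN-P18 rats. The P18 mean was 72.8% of the NP mean in CD and 80.0% in BN, so the BN-NP rats already stood where the upper CD-P18 rats did. Slc6a19 encodes the brush border carrier of neutral amino acids. Its level was 125, 141 and 118 CPM in CD-NP and 104, 90.7 and 71.8 CPM in CD-P18 rats, and 227, 227 and 168 CPM in BN-NP against 128, 84.9 and 97.9 CPM in BN-P18 rats. The BN-P18 mean was 49.9% of the BN-NP mean and the CD-P18 mean 69.5% of the CD-NP mean, and the P18 rats of the strains overlapped although the NP rats did not. Kcnj15, a basolateral inward rectifier potassium channel, had P18 means at 80.2% of NP in CD and 75.3% in BN. In BN its highest P18 rat (195.46 CPM) lay just under its lowest NP rat (195.49 CPM).

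**Figure D1:**
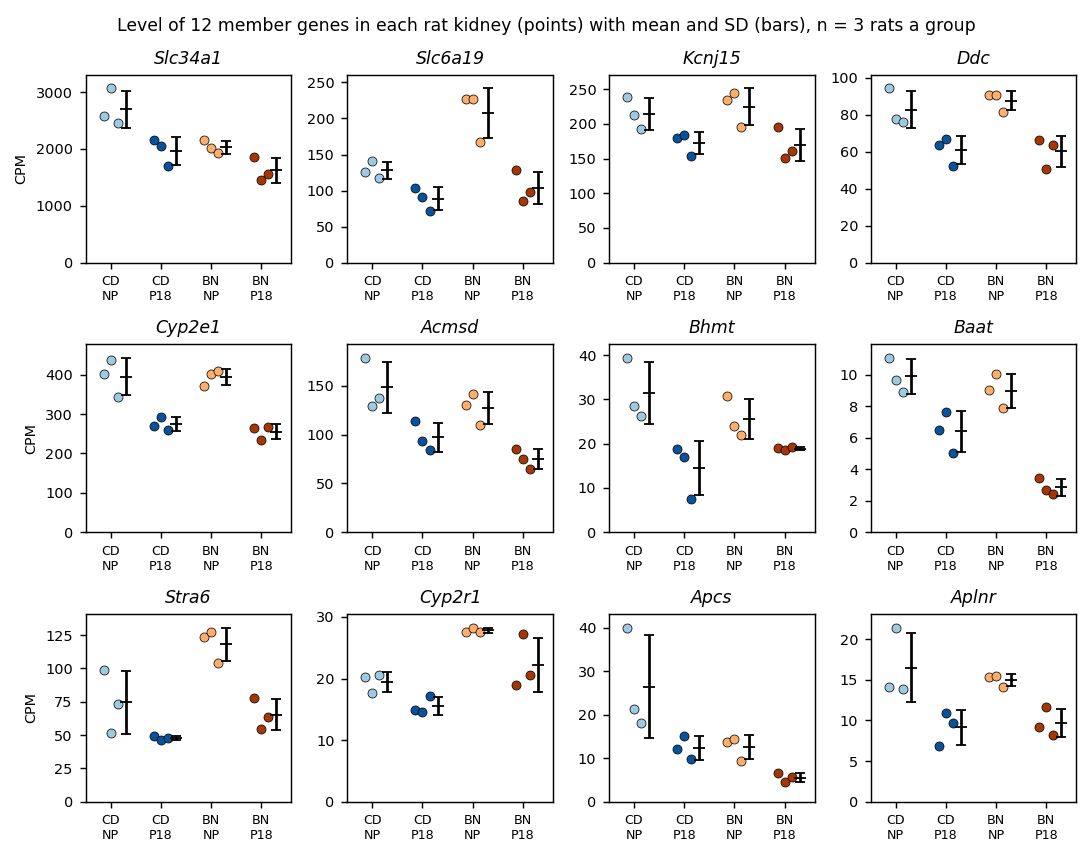
Level in CPM (vertical axis, from 0) of 12 of the 42 genes in each rat, by strain and stage, with points for single rats and bars for mean and SD of 3 rats. Every P18 point lies below every NP point of its strain, which the choice of genes required. Slc34a1 averaged 2701 CPM in CD-NP and 1625 CPM in BN-P18 rats, whereas Baat stood at 6.4 CPM in pregnant CD and 2.85 CPM in pregnant BN rats.

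The region before the start of transcription was looked at for letters these genes share. RefSeq promoter windows of assembly GRCr8, with 250 bases before and 50 after each start, were found for 27 of the 36 members with a gene symbol. Shown are the 150 bases before the start of both apical carriers, Slc34a1 and Slc6a19, and of the enzymes Cyp2e1 and Bhmt, with capitals that mark the TATA box motif (TATAAA) and the half-site of hepatocyte nuclear factor 1 (GTTAAT, or ATTAAC where the opposite strand holds it). They lie at chr17:9238984-9239133 (minus strand), chr1:31414594-31414743 (plus), chr1:205269817-205269966 (plus) and chr2:26614430-26614579 (minus), in this order.
Slc34a1: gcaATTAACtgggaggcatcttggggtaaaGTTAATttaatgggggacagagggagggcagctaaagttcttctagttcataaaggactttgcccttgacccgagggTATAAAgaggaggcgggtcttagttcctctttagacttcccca
Slc6a19: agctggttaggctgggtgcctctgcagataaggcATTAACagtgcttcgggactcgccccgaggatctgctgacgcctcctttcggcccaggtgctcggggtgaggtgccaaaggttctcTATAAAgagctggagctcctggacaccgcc
Cyp2e1: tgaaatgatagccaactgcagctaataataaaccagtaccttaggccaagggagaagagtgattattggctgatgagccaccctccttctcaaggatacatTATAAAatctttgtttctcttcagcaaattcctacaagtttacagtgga
Bhmt: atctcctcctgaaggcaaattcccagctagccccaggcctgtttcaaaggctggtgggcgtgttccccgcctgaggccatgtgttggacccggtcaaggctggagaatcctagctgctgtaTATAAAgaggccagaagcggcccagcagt

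TATAAA began 43 bases before the start of Slc34a1, 30 before Slc6a19, 49 before Cyp2e1 and 29 before Bhmt. In the whole 300-base windows, read on both strands, TATAAA occurred in 8 of the 27 members (29.6%) and in 15.3% of all 27457 genes with a window. GTTAAT occurred in 2 members (7.4%), Slc34a1 and Slc6a19, against 8.1% of all genes, so this half-site was about as frequent in the members as elsewhere. Of the other letters searched, AGGTCA (a nuclear receptor half-site) occurred in 7 members (25.9%, all genes 16.9%), CCAAT in 10 (37%, all genes 39.6%), CACGTG (an E-box) in 3 (11.1%, all genes 7.1%), CAAAGTCCA (a hepatocyte nuclear factor 4 site) in 1, Baat (3.7%, all genes 0.4%), and AGAACA (a glucocorticoid receptor half-site) in 5 (18.5%, all genes 21.6%). Each motif was searched without regard to the others, so matches may overlap, and a match describes the sequence only.

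Enzymes of amino acid, methyl group and creatine metabolism were another set. Acmsd, which steers tryptophan breakdown away from NAD synthesis, stood at 179, 129 and 138 CPM in CD-NP against 114, 93.9 and 84.4 CPM in CD-P18 rats. In BN it stood at 130, 142 and 110 CPM in NP against 85.5, 74.7 and 65.0 CPM in P18 rats. The P18 means were 65.5% of NP in CD and 59.0% in BN, and the levels of the strains overlapped at both stages. Bhmt, which remethylates homocysteine with betaine, was at 39.3, 28.6 and 26.1 CPM in CD-NP and 18.9, 17.0 and 7.53 CPM in CD-P18 rats, and at 30.7, 24.1 and 22.0 CPM in BN-NP and 19.0, 18.5 and 19.2 CPM in BN-P18 rats. Its log2 difference was -1.17 in CD and -0.41 in BN, and 1 CD-P18 rat, at 7.53 CPM, stood well below the other two. Ddc, the decarboxylase that makes dopamine in the proximal tubule, had P18 means at 73.5% of NP in CD and 68.8% in BN. Gamt, which completes creatine synthesis, had 80.8% and 67.3%. Glyatl2, a glycine acyltransferase relative, had 68.9% and 73.6%.

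Enzymes and carriers of lipids, bile acids and foreign compounds followed. Cyp2e1, a cytochrome P450 that oxidizes ethanol, acetone and small foreign molecules, stood at 403, 438 and 344 CPM in CD-NP against 270, 294 and 260 CPM in CD-P18 rats, and at 371, 401 and 409 CPM in BN-NP against 265, 235 and 267 CPM in BN-P18 rats. The levels of the strains overlapped at both stages, with P18 at 69.5% of NP in CD and 64.9% in BN. Baat joins bile acids to glycine or taurine. Its log2 difference was -0.60 in CD and -1.51 in BN, with 3.44, 2.70 and 2.41 CPM in the BN-P18 rats against 9.04, 10.03 and 7.89 CPM in the BN-NP rats. Abca15, an ATP-binding cassette transporter, had differences of -1.38 and -1.45, at 14.9, 7.61 and 7.25 CPM in BN-NP against 4.27, 2.88 and 2.41 CPM in BN-P18 rats. The first BN-NP rat stood well above its group mates. Acaa1a, a thiolase of peroxisomal fatty acid oxidation, had P18 means of 74.9% and 75.4% of NP.

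Genes of vitamin A and vitamin D handling were also among the 42. Stra6, the receptor that takes up retinol from its binding protein, stood at 98.8, 51.7 and 73.2 CPM in CD-NP against 49.5, 46.5 and 48.0 CPM in CD-P18 rats, and at 123, 127 and 104 CPM in BN-NP against 78.0, 54.8 and 63.2 CPM in BN-P18 rats. The CD-NP rats were spread widely, and the lowest of them was only 2.15 CPM above the highest CD-P18 rat. Cyp2r1, a vitamin D 25-hydroxylase, stood at 20.2, 17.6 and 20.6 CPM in CD-NP against 14.8, 14.5 and 17.1 CPM in CD-P18 rats, and at 27.5, 28.3 and 27.6 CPM in BN-NP against 18.9, 27.2 and 20.5 CPM in BN-P18 rats. The 3 BN-NP rats were tightly grouped and 1 BN-P18 rat nearly reached them.

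Receptors, secreted proteins and regulators completed the named members. Pou3f1, a transcription factor of the POU family, had the lowest mean difference (-1.5 in CD and -1.36 in BN), at 2.33, 2.58 and 3.53 CPM in CD-NP against 0.421, 1.58 and 0.310 CPM in CD-P18 rats, so few reads lie behind it. Apcs, the plasma protein serum amyloid P component, stood at 40.0, 21.2 and 18.1 CPM in CD-NP against 12.1, 15.1 and 9.80 CPM in CD-P18 rats, and at 13.8, 14.4 and 9.38 CPM in BN-NP against 6.57, 4.47 and 5.59 CPM in BN-P18 rats. The BN-NP rats lay within the range of the CD-P18 rats or just below it. Klk1c6, a tissue kallikrein, had differences of -1.10 and -0.67, and reads of this family of near-identical genes can be split or lost in counting. Aplnr, the receptor of the vasodilator peptide apelin, had P18 means of 55.5% of NP in CD and 64.6% in BN, and Adm, the vasodilator peptide adrenomedullin, 65.7% and 79.8%. Dusp9, a phosphatase of MAP kinases, had 43.6% and 67.1%. B3gat1, a glucuronyltransferase, had 55.7% and 56.3%. Magi2, a scaffold protein of the podocyte slit diaphragm, had 76.9% and 78.9%. The remaining genes that met the naming rule were Sez6l2 (53.7% and 45.5%), Fam151a (63.8% and 54.4%), Tmem144 (68.4% and 54.5%), Neurl2 (67.3% and 68.5%) and Cpxm2 (60.7% and 79.6%). C1qtnf3, Pmfbp1, Slc17a4, Tlr12, Cmbl, Rdm1, Znf750, Otud1 and Pdp2 were also members and are named here after their values were seen. The 6 members without a symbol averaged 3.21 to 58.8 CPM, with differences of -0.93 to -0.38 in CD and -0.90 to -0.38 in BN.

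Across all 42 genes the median difference was -0.57 in CD and -0.55 in BN, beside 0.010 and 0.028 over all genes at 2 CPM or more. In CD the differences spanned -1.5 to -0.30, in BN they spanned -1.51 to -0.31, and 20 members had the lower value in CD and 22 in BN. The strains' differences were more than 0.5 apart for 2 members, Baat and Bhmt, in opposite directions. The P18 mean was under 50% of the NP mean for 6 members in each strain. The members ranged from 2.45 to 2081 CPM with a median of 18.6 CPM, and 13 of them averaged under 10 CPM. In single rats, the median member stood -0.64 to -0.49 from the CD-NP mean in the CD-P18 rats and -0.67 to -0.47 from the BN-NP mean in the BN-P18 rats, against -0.16 to 0.068 in the 6 NP rats, so the P18 and NP rats stood apart, as the choice of genes required. Together the members held 0.297 to 0.366% of the gene reads of the CD-P18 rats, against 0.431 to 0.512% of those of the CD-NP rats. In BN they held 0.279 to 0.347% at P18 against 0.392 to 0.446% at NP.

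**Figure D2:**
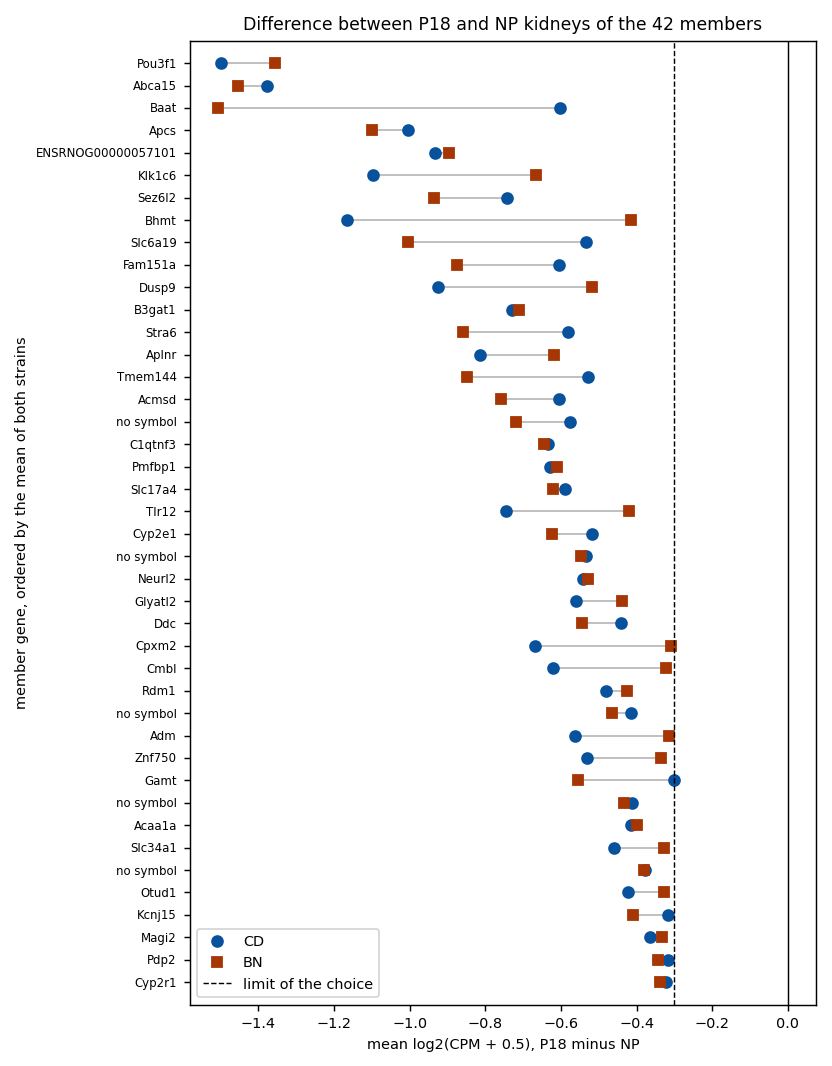
Mean log2(CPM + 0.5) of P18 minus NP rats (horizontal axis) of each of the 42 genes in CD (circles) and BN (squares), ordered by the mean of both strains, with the limit of -0.3 as a dashed line. Baat and Bhmt have the longest lines between the strains, with -0.60 and -1.51 for Baat and -1.17 and -0.41 for Bhmt. Genes without a symbol are marked so, except one identifier given in the text.

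The limit on the difference decided much of the number. In all, 119 genes (0.932% of those at 2 CPM or more) had every P18 rat below every NP rat in both strains, and 77 of them missed the limit in at least one strain. Just inside it were Gamt (-0.30 in CD and -0.56 in BN), Cpxm2 (-0.67 and -0.310) and Adm (-0.56 and -0.314). Just outside were ENSRNOG00000019950 (-0.38 and -0.299), Gabarapl1, an autophagy protein (-0.298 and -0.35), and Lrrc8b, a subunit of volume-regulated anion channels (-0.298 and -0.2998). The same conditions turned around were met by 135 genes that were higher at P18 in both strains. The number of lowered genes was 72 without BN-NP rat 3, 68 without BN-P18 rat 1 and 67 without CD-NP rat 3, since fewer rats make separation easier.

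An edgeR quasi-likelihood fit over the 12 libraries, taking genes with an adjusted p (Benjamini-Hochberg) under 0.1 whose log2 fold change exceeded 0.32 in size, passed 29 members as lower at P18 in CD and 14 in BN. The background was 2.15% of the 14212 genes tested as lower in CD and 0.577% in BN, and nothing is read from the members' share because the choice used these values. Both strains passed for 12 members, 17 passed in CD alone, 2 in BN alone (Slc6a19 and Gamt) and 11 in neither, and whether the strains differ in this was not tested. The counts changed when single rats were left out, which also left fewer rats in that group. In CD the count was 18 without CD-NP rat 1, 12 without CD-NP rat 2 and 21 without CD-NP rat 3. It was 12 without CD-P18 rat 1, 17 without CD-P18 rat 2, 11 without CD-P18 rat 3 and 19 without BN-NP rat 2. In BN the count was 3 without BN-NP rat 1, 3 without BN-NP rat 2 and 19 without BN-NP rat 3. It was 16 without BN-P18 rat 1, 4 without BN-P18 rat 2 and 5 without BN-P18 rat 3.

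The other genes of the members' pathways were counted by the same thresholds. Gene lists were counted only over genes for which a symbol could be paired, which are genes with a small unadjusted p in some comparison of these same rats, so the counts lean towards changed genes, and genes named here beside the members were named after their values were seen. Over all genes tested, 2.15% passed as lower and 2.56% as higher at P18 in CD, and 0.577% as lower and 0.823% as higher in BN. The lists cannot be read straight against these shares because of how their genes came to have a symbol. Of the 10 measured genes of calcium, phosphate and vitamin D handling, 2 passed as lower in CD, Slc34a1 and the parathyroid hormone receptor Pth1r (log2 fold change -0.51, adjusted p 0.0161), and 2 as lower in BN, the second phosphate cotransporter Slc34a3 (-0.86, adjusted p 0.0282) and the 1-alpha-hydroxylase Cyp27b1 (-2.92, adjusted p 0.0614, at 1.04 CPM on average). The vitamin D 24-hydroxylase Cyp24a1 rose in BN (4.37, adjusted p 0.0253) and not past the test in CD (0.12, adjusted p 0.958). Among the 8 genes that were not members, 1 thus passed as lower in CD and 2 in BN, and their median difference was -0.17 in CD and -0.18 in BN.

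Of the 23 measured genes of amino acid transport and metabolism, 3 were members (Slc6a19, Ddc and Gamt). Among the other 20, 1 passed as lower in CD, the neutral amino acid carrier Slc43a2 (-0.37, adjusted p 0.0267), and 4 passed as higher, the taurine carrier Slc6a6, the carrier Slc7a12, the polyamine enzyme Odc1 and the proline oxidase Prodh1. In BN 2 of the 20 passed as lower, the basolateral carriers Slc7a7 (-0.95, adjusted p 0.0384) and Slc7a8 (-0.63, adjusted p 0.0807). Their median difference was 0.12 in CD and -0.18 in BN. Slc6a18, a brush border relative of Slc6a19, had log2 fold changes of -0.0068 in CD and -0.018 in BN (adjusted p 0.986 and 0.976), at 330 CPM on average. Of the 28 measured genes of xenobiotic and steroid metabolism, Cyp2e1 was the only member, and of the other 27 the test passed 1 as lower in CD (the glutathione transferase Gsta3), 4 as higher in CD (Cyp1a1, Cyp1b1, Fmo2 and Sult1a1), 1 as lower in BN (Gsta2) and 1 as higher in BN (Gsta1). Of the 10 measured genes of fatty acid oxidation, Acaa1a was the only member, and of the other 9 the test passed 1 as lower in each strain, Fabp3 in CD (-0.42, adjusted p 0.0751) and Slc27a2 in BN (-0.56, adjusted p 0.0682), and 1 as higher in CD, Ucp2. No member was among the measured genes of the lists for the circadian clock, chaperones, cholesterol synthesis, immediate early genes, corticosteroid targets, the renin-angiotensin system, glycolysis and gluconeogenesis, extracellular matrix, cell cycle or the interferon response.

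Markers of cell types were summed in each rat. Of 16 listed proximal tubule markers 6 were measured with a symbol, and 2 of these, Slc34a1 and Slc6a19, were members. The sum of all 6 was 4208 to 4778 CPM in CD-NP against 3326 to 4090 CPM in CD-P18 rats, without overlap. In BN it was 3594 to 4218 CPM in NP against 3387 to 3986 CPM in P18 rats, with overlap. Because the 2 members in it were chosen for lower P18 values, the order of this sum is not separate from the choice. The summed level of the other 4 (Slc5a2, Slc22a6, Slc7a13 and Slc17a3) was 1497 to 1815 CPM in CD-NP and 1561 to 1827 CPM in CD-P18 rats, and 1505 to 1840 CPM in BN-NP and 1776 to 1991 CPM in BN-P18 rats. Slc7a13 made up most of that sum, with differences of 0.096 in CD and 0.55 in BN. The glucose carrier Slc5a2 fell in BN (log2 fold change -0.64, adjusted p 0.0767) and the anion carrier Slc17a3 fell in CD (-0.44, adjusted p 0.0858). In BN the differences of Slc5a2, Slc22a6 and Slc17a3 were -0.61, -0.25 and -0.083, and the median difference of the 4 was -0.00065 in CD and -0.17 in BN. The part of proximal tubule content in the members' values was not tested. For podocytes, 5 of 10 listed markers were measured, Magi2 among them. The sum of the other 4 was 777 to 997 CPM in CD-NP against 620 to 709 CPM in CD-P18 rats, and 804 to 829 CPM in BN-NP against 716 to 790 CPM in BN-P18 rats, so it moved in the same direction as Magi2. Of these 4 genes, 3 passed as lower in CD and 0 in BN, beside 2.15% and 0.577% of all genes tested. The limit on reading list counts against those shares holds here too. Their median difference was -0.51 in CD and -0.097 in BN. The part of podocyte content in the Magi2 values was not tested. Of 12 macrophage markers 8 were measured, with sums of 167 to 209 CPM in the CD-P18 rats against 111 to 131 CPM in the CD-NP rats. In BN they were 140 to 151 CPM at P18 against 107 to 113 CPM at NP. Of 17 markers of the thick ascending limb and distal convoluted tubule 6 were measured, with sums of 1514 to 1616 CPM in CD-P18 against 1846 to 2045 CPM in CD-NP rats. In BN their sums were 1729.6 to 1769 CPM at P18 and 1514 to 1729.1 CPM at NP, the opposite order. The thiazide-sensitive cotransporter Slc12a3 (-0.44, adjusted p 0.0120) and Tmem52b (-0.54, adjusted p 0.0338) fell in CD. The 3 measured of 13 inner medulla and osmolyte genes summed to 323 to 367 CPM in CD-P18 against 259 to 288 CPM in CD-NP rats, and overlapped in BN. The 6 measured of 15 endothelial markers summed to 478 to 515 CPM in CD-P18 against 434 to 446 CPM in CD-NP rats, and overlapped in BN. The 8 measured of 20 collecting duct markers overlapped between NP and P18 in both strains. The part of these cell types in the members' values was not tested.

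**Figure D3:**
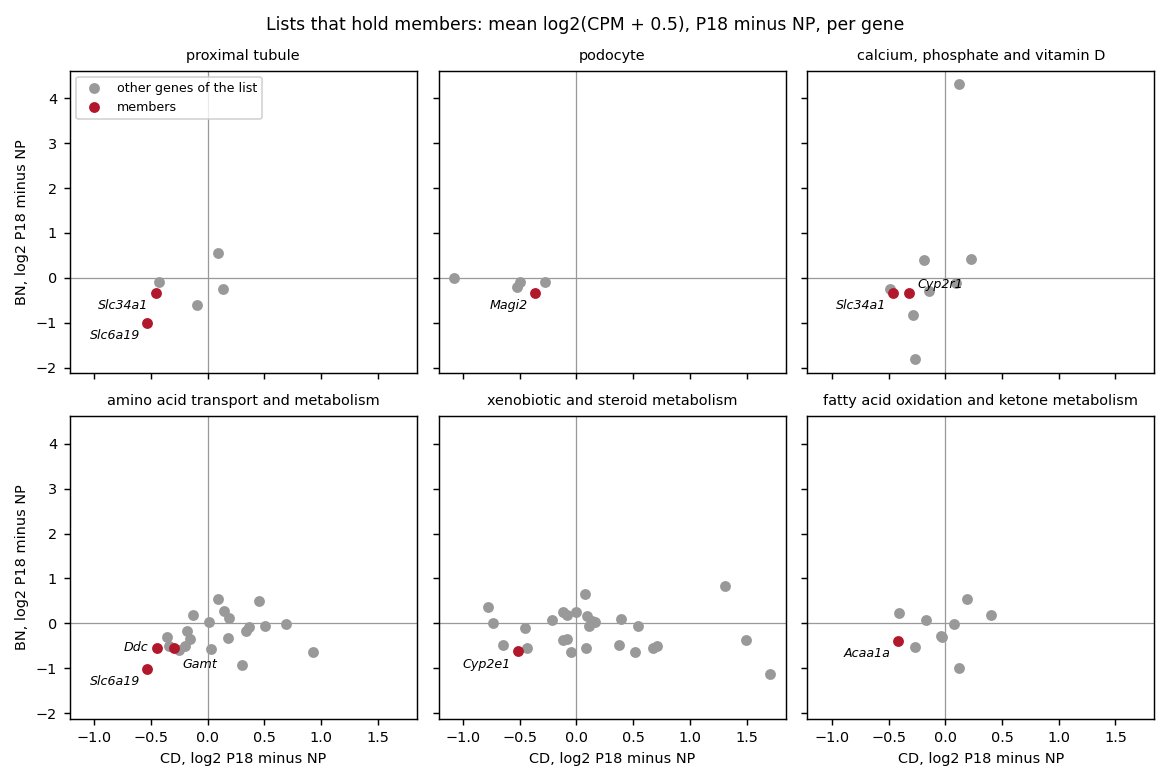
Mean log2(CPM + 0.5) of P18 minus NP rats in CD (horizontal axis) and BN (vertical axis) for the measured genes of 6 lists, with members in red and other genes in grey. The members lie in the lower left corner because the choice put them there, and Cyp24a1 at 4.31 in BN is the highest point. In CD the median of the other genes of a list ran from -0.51 (podocyte) to 0.12 (amino acids). In BN it ran from -0.18 (calcium, phosphate and vitamin D) to -0.019 (fatty acid oxidation).

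The comparison of the strains averaged NP and P18 within each strain and so did not use the difference that chose the genes. The choice was not wholly separate from it. The condition that every P18 rat lie below every NP rat bears on the spread between rats within groups. The strain p-values are set against that same spread. The minimum of 2 CPM was also set on the mean of both strains. Pou3f1 (1.79 CPM in CD and 3.27 CPM in BN) and Dusp9 (1.96 and 3.97 CPM) met that minimum only through BN, so their strain differences are given as values and support nothing. BN and CD rats differed in 16 of the 42 members (38.1%), 10 higher and 6 lower in BN. Dusp9 and Pou3f1 are counted in the 16 and in the 10. Over all genes tested the share was 11.4% (1617 of 14212, 810 higher and 807 lower). Whether reads of both strains align equally well to the one assembly used, Rnor_6.0, was not tested, for these members or for all genes. The median size of the log2 strain difference was 0.29 in the members and 0.12 over all genes. With the minimum asked of each strain, an alternative chosen after seeing the data, 14 of 40 members passed (35%), beside 9.81% of 12530 genes. Genes taken by the same kind of condition had similar shares when they were higher at P18 (41 of 135, 30.4%) and lower shares when they missed the limit of -0.3 (11 of 77, 14.3%). No test was made between these sets, so nothing here is claimed as particular to the lowered genes. The median SD between rats of one group, on the log2(CPM + 0.5) scale, was 0.20 in the members, 0.25 in the raised genes, 0.087 in the 77 genes and 0.16 in all genes tested.

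Among the members higher in BN were Klk1c6 (log2 fold change 1.29 ± 0.25 SE, adjusted p 0.00361), ENSRNOG00000057101 (0.81 ± 0.14, adjusted p 0.00168) and Glyatl2 (0.74 ± 0.12, adjusted p 0.00118). Glyatl2 stood at 79.4, 71.2 and 91.3 CPM in CD-NP and 141, 135 and 113 CPM in BN-NP rats, and at 65.2, 62.5 and 39.1 CPM in CD-P18 and 102, 83.3 and 101 CPM in BN-P18 rats, with no overlap between the strains at either stage. Cyp2r1 (0.52 ± 0.088, adjusted p 0.00151) and Neurl2, an adaptor of ubiquitin ligases (0.49 ± 0.093, adjusted p 0.00336), were also higher. Dusp9, which met the minimum only through BN, had a log2 value of 1.11 ± 0.18. The carriers of vitamin A and neutral amino acids followed, Stra6 with 0.56 ± 0.13 (adjusted p 0.0134) and Slc6a19 with 0.47 ± 0.13 (adjusted p 0.0283). Lower in BN were Apcs (-1.11 ± 0.21, adjusted p 0.00308), Baat (-0.65 ± 0.14, adjusted p 0.00858), Gamt (-0.37 ± 0.10, adjusted p 0.0305) and Slc34a1 (-0.34 ± 0.095, adjusted p 0.0318). Cyp2e1 (-0.050 ± 0.066, adjusted p 0.687), Ddc (0.042 ± 0.089, adjusted p 0.811) and Kcnj15 (0.030 ± 0.091, adjusted p 0.873) did not pass.

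Of the 16 calls, 10 were kept in every fit that left out 1 rat. Dusp9 is among these 10 but met the minimum of 2 CPM only through BN, so its call supports nothing. Slc34a1 ranged from -0.41 to -0.28 and slipped under the log2 size of 0.32 without BN-NP rat 3, BN-P18 rat 2, BN-P18 rat 3, CD-NP rat 2 or CD-P18 rat 1, and Gamt did so without BN-NP rat 3 (-0.30). Tlr12 (0.40 ± 0.10, adjusted p 0.0232) did so without BN-P18 rat 1 (0.30). Pou3f1 (0.97 ± 0.33), which met the minimum of 2 CPM only through BN, fell short without BN-NP rat 1 or 2 or BN-P18 rat 3. The same held without CD-NP rat 1 or 2 or CD-P18 rat 1 or 3, so 7 of 12 such fits lost the call. Adm (-0.35 ± 0.13, adjusted p 0.0947) lost it in 8, without any of the BN-NP rats, BN-P18 rat 2, CD-NP rat 2 or any of the CD-P18 rats, with adjusted p up to 0.212. Pmfbp1 (-0.37 ± 0.14, adjusted p 0.0975) lost it in 9, without BN-NP rat 2 or 3, BN-P18 rat 2 or 3, any of the CD-NP rats, or CD-P18 rat 1 or 2, with adjusted p up to 0.196.

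**Figure D4:**
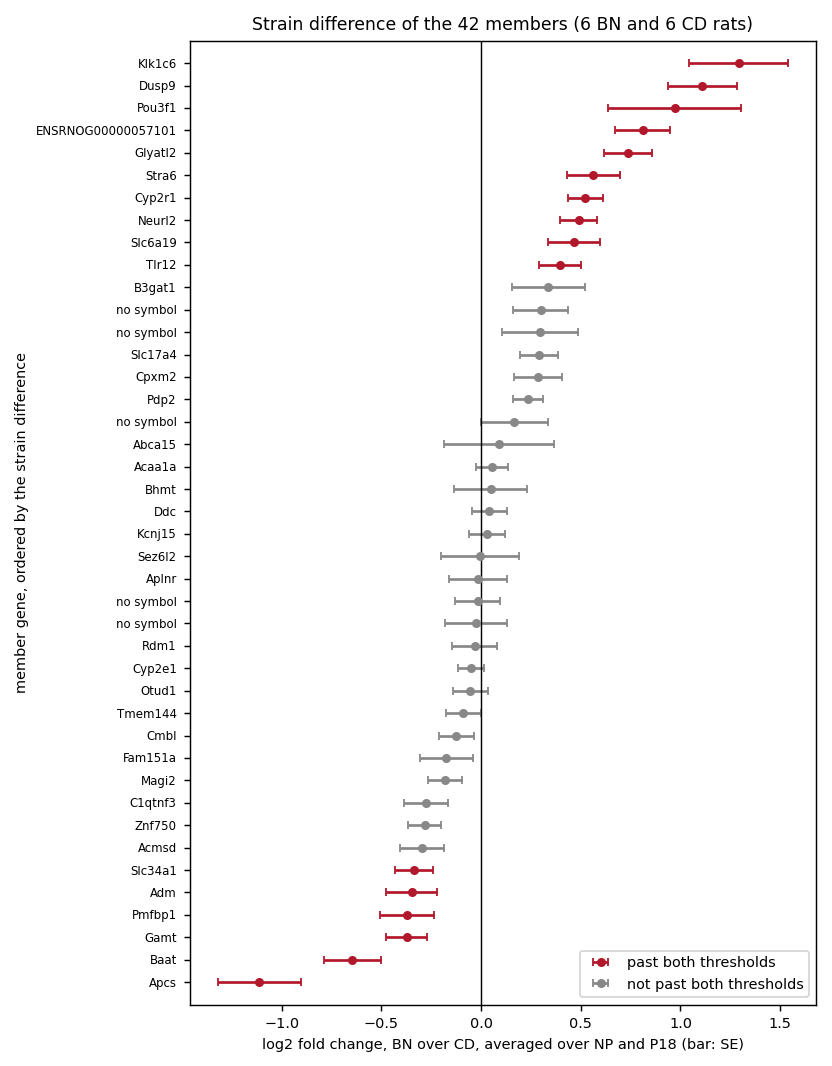
Log2 fold change of BN over CD, averaged over NP and P18 (horizontal axis), of the 42 genes with its SE, in red where both thresholds passed and in grey where they did not. The 10 red genes at the top are higher in BN, up to 1.29 for Klk1c6, and the 6 at the bottom are lower, down to -1.11 for Apcs. Dusp9 and Pou3f1, among the 10, met the minimum of 2 CPM only through BN.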

How the data were processed

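RNA-seq was measured in 12 kidney libraries, 3 rats per group, grouped by their labels. The authors trimmed reads with Trimmomatic, aligned them to Rnor_6.0 with STAR 2.5.2 and deposited raw read counts per gene from HTSeq 0.6.1 (versions from the submitters' processing notes). The annotation release and the strand setting of the counting are not given in the sources used here, so antisense and overlapping genes may share reads. Summary lines that name no gene held 72.5 to 75.6% of each column's entries and were left out. The 12 methylation (RRBS) libraries were not analysed here, since their positions could not be tied to the members' identifiers.

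CPM was each count over its column sum. The fit used R 4.3.3 and edgeR 4.0.16 (filterByExpr, TMM scaling, glmQLFit with 4 groups, 14212 genes), calling genes at an adjusted p (Benjamini-Hochberg) under 0.1 whose log2 fold change exceeded 0.32 in size. The strain comparison averaged NP and P18. The procedure was tested on simulated data. P-values set each difference against the spread between rats within groups, estimated jointly over the 4 groups of 3 rats and moderated across genes. DESeq2 1.42.0, other scalings and filters, a replicate block and leaving out each rat were tried as alternatives. Symbols were not in the count table. They were taken from the study's gene table by matching its fold changes and abundances to the recomputed ones (3042 of 3064 symbols paired within 0.003), which leaves most genes unnamed. No value of that table is reported. Promoters came from RefSeq (GRCr8).

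Members and gene lists were chosen with earlier results of these data known. Named genes were the 15 members with a symbol and the lowest mean difference, the 5 with the most CPM, members in a gene list, the 8 strain calls with the smallest p, and the 3 genes nearest to either side of the limit of -0.3.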

Additional observations from a re-analysis of the deposited data

How the results depend on the processing

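The number of lowered genes was 48 with TMM scaling and 55 with upper-quartile scaling, of which 34 and 35 were among the 42. It was 22 with a limit of -0.5, 119 with a limit of 0 and 166 without the condition on overlap. Leaving out single rats gave 49 to 72. The median difference of the 42 genes moved by less than the spread between rats under each alternative tried, and its sign is fixed by the choice of genes. The strain calls numbered 14 with upper-quartile scaling and 15 with DESeq2, each among the 16, 12 to 16 without single rats, and 6 when 0.05 was asked of the adjusted p and 1.5 of the fold change. Under those thresholds 10 members passed as lower at P18 in CD and 7 in BN. The BN count of 14 became 22 with DESeq2 and 25 with no filter on low counts. Without single rats it ran from 3 to 19, and the CD count from 11 to 28. The cause of these shifts was not tested.

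With the replicate number as a block, 15 members were called between the strains, and 33 in CD and 23 in BN passed as lower at P18. Same-numbered deviations correlated at -0.20 to 0.36, with 6 of 18 over 0.1, and 7 of 12 libraries correlated best with their own number. These values do not settle whether the numbers pair the rats. The alternatives planned for CpGs near the members were not run, since methylation was not analysed here.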
